A study of Mus musculus with 16 samples.

Results

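Immediate early genes are transcribed within minutes of a stimulus from transcription factors that are already present in the cell, so that no new protein has to be made first. In neurons, calcium entry during synaptic activity switches them on through CREB, SRF with its ELK partners, and MEF2, and their transcripts are short-lived. For this reason their level in a frozen brain sample is widely read as a trace of recent neuronal activity, although growth factors and stress also switch on several of them. The genes described here are 10 such genes, found by symbol among the 39017 genes of the deposited table: the AP-1 subunits *Fos*, *Fosb* and *Junb*, the zinc-finger transcription factors *Egr1* and *Egr2*, the nuclear receptors *Nr4a1* and *Nr4a3*, the neuronal transcription factor *Npas4*, the synaptic gene *Arc* and the MAP kinase phosphatase *Dusp1*. All 10 were in the table, each on 1 row, and all 10 passed the filter for testing, a mean normalized value of at least 10 over all libraries. *Egr2* passed it only through the prefrontal cortex, since its mean over the 8 ventral midbrain libraries was 4.67.

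RNA was sequenced from 2 brain regions of 13-week-old male mice, the vMB (ventral midbrain) and the PFC (prefrontal cortex), each cut out by microdissection, with 4 libraries in each of 4 groups: vMB Mutant, vMB WT, PFC Mutant and PFC WT. Mutant mice were homozygous for a knock-in of the H150Y substitution in *Cdh2*, made by CRISPR/Cas9 in zygotes of the C57BL/6JRcc strain and bred with that strain. The controls were WT mice, which the supplement of the study describes as littermates. *Cdh2* encodes N-cadherin, an adhesion protein of synapses, and the substitution is carried by every cell from the germline, with no tissue-specific driver. The study describes 2 founder lines of mutants, but the labels do not assign the Mutant libraries to these lines. According to the methods, the mice had gone through a battery of behavioral tests. They were then perfused with PBS, followed by formaldehyde, and 1 hemisphere was frozen for dissection. How long after the last test the perfusion took place is not stated, and for genes that respond within minutes it cannot be told apart from other differences between the animals.

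The values are read counts normalized by the authors with DESeq2, on a linear scale, and are called normalized values below. They summed to between 8.69 M and 10.03 M per library, and the approximate depth was 7.74 M to 11.3 M reads. A gene was called when its adjusted p in limma, over the 14814 genes tested, was at most 0.05 and its fold change at least 1.3. The p-values measure the spread between these libraries, because the labels do not say that each library came from a separate animal. In a piece of tissue, fewer cells that express a gene and less RNA in each of them cannot be told apart. Marker genes matched the labels of the tissues. All 7 markers of cortical projection neurons were lower in the vMB, with a median log2 fold change of -3.41, and all 5 tested markers of dopamine neurons, of 7 in the list, were higher in the vMB, with a median of 4.01.

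CREB and SRF act through sites in the DNA, some of which lie just before the start of immediate early genes. Windows of 250 bases upstream of the transcription start were taken from RefSeq (GRCm38.p6), which matched 8 of the 10 genes. *Arc* and *Egr1* were not among the matched genes. The windows of 6 genes are printed below because the levels of the 10 genes moved together across the libraries, as described further on. Over the 16 libraries *Junb*, *Nr4a1*, *Fos* and *Dusp1* had an r of 0.96, 0.92, 0.89 and 0.88 with the mean of the other 9 genes, and *Npas4* and *Nr4a3*, which followed them least, had 0.69 and 0.61. In the vMB alone the order differed, with *Fos* at 0.74 and *Npas4* at 0.83. Capitals mark TGACG, the core of the cAMP response element that CREB binds, and CGTCA, the same letters on the opposite strand.
Junb, chr8:84978749-84978998, minus strand: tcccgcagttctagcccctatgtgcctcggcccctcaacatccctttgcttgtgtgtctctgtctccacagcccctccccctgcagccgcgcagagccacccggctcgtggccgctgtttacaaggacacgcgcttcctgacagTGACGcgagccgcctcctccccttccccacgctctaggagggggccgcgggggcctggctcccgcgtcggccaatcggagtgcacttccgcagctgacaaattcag
Nr4a1, chr15:101266596-101266845, plus strand: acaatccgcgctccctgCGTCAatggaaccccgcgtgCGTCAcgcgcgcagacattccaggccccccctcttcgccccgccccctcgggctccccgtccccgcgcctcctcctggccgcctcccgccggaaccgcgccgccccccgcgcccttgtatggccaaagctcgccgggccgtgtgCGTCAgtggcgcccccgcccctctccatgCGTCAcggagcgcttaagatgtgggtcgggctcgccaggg
Fos, chr12:85473640-85473889, plus strand: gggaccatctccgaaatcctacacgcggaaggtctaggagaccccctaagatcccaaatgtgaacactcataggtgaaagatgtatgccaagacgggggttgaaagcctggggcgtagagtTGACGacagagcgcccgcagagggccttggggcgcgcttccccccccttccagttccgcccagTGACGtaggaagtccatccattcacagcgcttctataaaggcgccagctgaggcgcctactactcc
Dusp1, chr17:26508473-26508722, minus strand: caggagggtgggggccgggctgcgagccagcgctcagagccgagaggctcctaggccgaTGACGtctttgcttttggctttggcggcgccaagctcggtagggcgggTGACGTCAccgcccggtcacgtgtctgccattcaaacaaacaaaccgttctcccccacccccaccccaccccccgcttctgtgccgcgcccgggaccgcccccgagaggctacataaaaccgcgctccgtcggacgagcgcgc
Npas4, chr19:4989972-4990221, minus strand: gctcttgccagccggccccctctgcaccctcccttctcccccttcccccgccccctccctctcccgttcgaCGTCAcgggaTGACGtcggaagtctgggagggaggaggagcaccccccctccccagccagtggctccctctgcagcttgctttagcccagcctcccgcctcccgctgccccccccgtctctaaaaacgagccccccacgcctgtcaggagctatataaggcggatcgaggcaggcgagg
Nr4a3, chr4:48045055-48045304, plus strand: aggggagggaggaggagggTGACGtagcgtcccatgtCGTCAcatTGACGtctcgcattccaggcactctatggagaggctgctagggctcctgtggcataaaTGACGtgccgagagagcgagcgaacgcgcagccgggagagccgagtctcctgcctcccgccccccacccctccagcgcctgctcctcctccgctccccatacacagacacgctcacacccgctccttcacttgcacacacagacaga

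The core TGACG, on either strand, was present in the windows of all 8 matched genes, and in 17.8% of the 32851 mouse promoter windows of the same length. *Nr4a1* and *Nr4a3* each held 4 copies, *Dusp1* held 3, *Fos* and *Npas4* held 2 each and *Junb* and *Fosb* held 1 each. *Egr2* has 5 annotated starts and was counted if any of its 5 windows held the core. The core was in 3 of them, which overlap in the genome and are not separate stretches of DNA. The full palindrome TGACGTCA, which contains the core on both strands, was found only in *Dusp1* among the 8 genes, against 1.55% of all windows. The CArG box, the site of SRF, was found only in *Egr2* among the 8 genes, in 4 of its 5 windows. These include the 3 overlapping ones, so the 4 are not separate matches to set against the 1.47% of all windows that held it. A match describes these letters only, and sites farther from the start lie outside the windows.

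The levels of the 10 genes spanned a wide range. In this paragraph normalized values were divided by the exon length of the gene in kilobases, since only then can genes be compared with each other. In the vMB the order of the mean levels per kilobase was *Egr1* (132), *Arc* (131), *Junb* (99.9), *Fos* (98.7), *Dusp1* (63.0), *Nr4a1* (50.5), *Nr4a3* (15.5), *Npas4* (13.6), *Fosb* (6.08) and *Egr2* (1.37). In the PFC *Arc* was the most abundant, with a mean of 1478 ± 532 per kilobase (SD, n = 8), followed by *Egr1* (877), *Junb* (569.6), *Nr4a1* (436), *Fos* (221), *Npas4* (147), *Dusp1* (143), *Nr4a3* (62.7), *Egr2* (46.1) and *Fosb* (44.98). Several neighbors in these orders did not differ beyond their spread. In the vMB *Egr1* lay above *Arc* in 3 of 8 libraries, *Junb* above *Fos* in 4 of 8 and *Nr4a3* above *Npas4* in 3 of 8. In the PFC *Npas4* lay above *Dusp1* in 5 of 8 libraries and *Egr2* above *Fosb* in 6 of 8. The ranges of *Fosb* and *Egr2* in the vMB were the only neighboring ranges that did not overlap in either tissue. The step between *Nr4a1* and *Fos* in the PFC was kept in 8 of 8 libraries, whereas in the vMB *Fos* stood above *Nr4a1*.

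The AP-1 subunits *Fos*, *Fosb* and *Junb* pair with each other and with JUN to form a transcription factor that carries a brief stimulus into a longer change of gene expression. *Fos* had normalized values of 273, 259.6, 166 and 284 in vMB Mutant libraries, against 134, 207, 196 and 338 in vMB WT libraries. In the PFC *Fos* had 328, 437, 700.0 and 453 in Mutant libraries, against 237, 495, 850.4 and 664 in WT libraries. Mutant and WT values overlapped in both tissues, and the lowest library of each tissue was WT library 1. *Fosb*, which also gives rise to the long-lived isoform ΔFosB, had 58.5, 31.3, 22.7 and 42.1 in vMB Mutant libraries, against 26.5, 28.5, 46.8 and 47.4 in vMB WT libraries. In the PFC *Fosb* had 149, 225, 317 and 273 in Mutant libraries, against 217, 319, 337 and 409 in WT libraries. The 2 highest values of *Fosb* in the PFC were WT and the lowest was Mutant, but the groups overlapped. *Junb*, an AP-1 subunit that is induced together with *Fos*, had 322, 238, 225 and 274 in vMB Mutant libraries, against 133, 186, 242 and 219.9 in vMB WT libraries. In 14 of the 16 Mutant and WT pairs of vMB libraries the Mutant value of *Junb* was the higher. In the PFC *Junb* had 895, 1163, 1977 and 1390.5 in Mutant libraries, against 621, 1322, 1522 and 1594 in WT libraries, with both the highest value in Mutant and the lowest in WT.

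*Egr1* and *Egr2* encode zinc-finger transcription factors that are switched on by synaptic activity and, in the case of *Egr1*, are needed for lasting synaptic potentiation. *Egr1* had 647, 537, 420.5 and 653 in vMB Mutant libraries, against 433, 608, 612 and 826 in vMB WT libraries. In the PFC it had 2496, 3717, 4552 and 3787 in Mutant libraries, against 3604, 3933, 4061 and 5326 in WT libraries. In both tissues the lowest *Egr1* value was Mutant and the highest WT, and the groups overlapped. *Egr2* had 4.89, 2.40, 1.97 and 4.79 in vMB Mutant libraries, against 2.96, 5.75, 9.85 and 4.76 in vMB WT libraries. At the depth of these libraries such values stand for a few reads each, so differences between vMB libraries in *Egr2* are close to counting error. In the PFC *Egr2* had 85.1, 130.3, 197 and 163 in Mutant libraries, against 49.2, 125, 247 and 256 in WT libraries, so that the WT values ranged more widely and enclosed the Mutant ones.

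*Nr4a1* and *Nr4a3* encode nuclear receptors that act without a known hormone and are regulated mainly through their own transcription. *Nr4a1* had 200.4, 164, 137 and 194 in vMB Mutant libraries, against 119, 145, 211 and 247 in vMB WT libraries. In the PFC it had 1139, 1382, 1803 and 1534 in Mutant libraries, against 640.2, 1712, 1875 and 2159 in WT libraries. WT library 1 of the PFC was far below the other 7 PFC libraries for *Nr4a1*. *Nr4a3* had 222, 89.3, 33.8 and 93.5 in vMB Mutant libraries, against 79.8, 57.3, 108 and 59.5 in vMB WT libraries. The 4 vMB Mutant libraries held both the highest and the lowest *Nr4a3* value of the vMB, which were 6.58-fold apart, the widest ratio of highest to lowest library of any of the 10 genes within any of the 4 groups. In the PFC *Nr4a3* had 188, 341, 392 and 374 in Mutant libraries, against 289, 449, 437 and 533 in WT libraries.

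*Arc* encodes a protein that acts at the synapse in the removal of AMPA receptors, and *Npas4* a transcription factor that responds to calcium in neurons and regulates inhibitory synapses. *Arc* had 553, 389, 343 and 359 in vMB Mutant libraries, against 329, 401, 429.7 and 393 in vMB WT libraries. In the PFC it had 3207, 5395, 5137 and 4065 in Mutant libraries, against 1574, 4275, 5637 and 6859.8 in WT libraries. The spread of *Arc* in the PFC was a coefficient of variation of 22.7% in Mutant and 49.5% in WT libraries, with the WT group holding both extremes. *Npas4* had 61.8, 40.2, 37.6 and 74.1 in vMB Mutant libraries, against 32.2, 58.9, 90.5 and 55.0 in vMB WT libraries. In the PFC it had 486, 639, 890.3 and 458 in Mutant libraries, against 421, 591, 877 and 502 in WT libraries. Both groups of *Npas4* had 1 library near the top of the range in the PFC, Mutant library 3 and WT library 3. *Dusp1*, whose product removes phosphate from MAP kinases and so ends the signal that induced it, had 225, 205, 207 and 243 in vMB Mutant libraries, against 145, 183, 233 and 228 in vMB WT libraries. In the PFC *Dusp1* had 377, 429, 743 and 481 in Mutant libraries, against 169.8, 442, 611 and 538 in WT libraries.

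**Figure D1:**
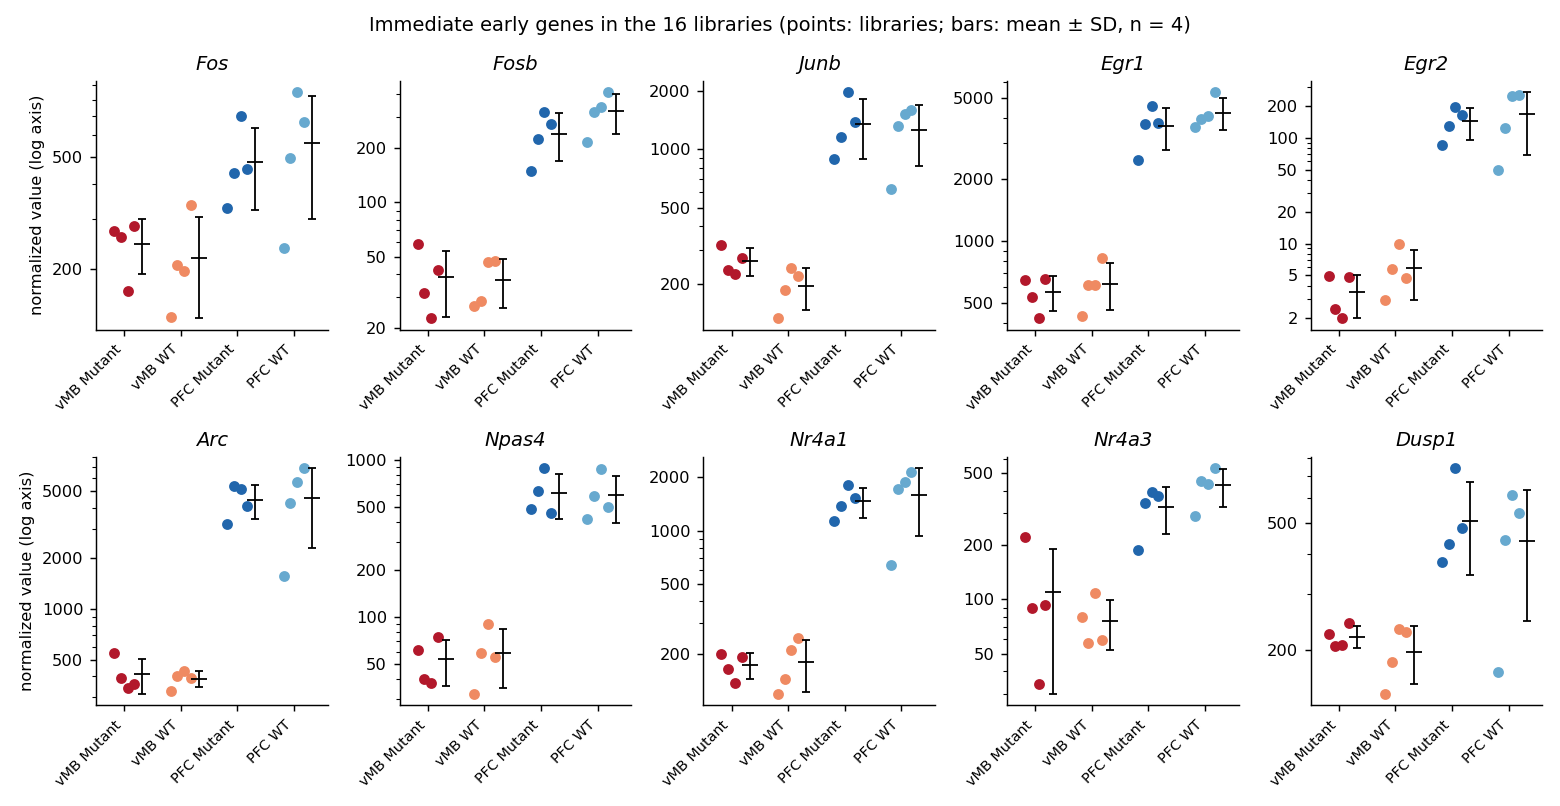
Normalized values (log axis) of the 10 genes in each library, by group, with the mean and SD of the 4 libraries of a group. The means of the vMB groups lie below those of the PFC groups for every gene, and the Mutant and WT values of a tissue overlap for every gene.

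All 10 genes were lower in the vMB than in the PFC, where the comparison was averaged over the genotypes. Of the 9 genes with a mean of at least 10 in each tissue, each was called lower in the vMB by limma, against 24.2% of all tested genes called lower. *Egr2*, which passed the filter only through the PFC, averaged 4.67 in the vMB and 156.6 in the PFC, and its log2 fold change of -4.74 ± 0.32 (SE) is given as a value with no test. *Npas4* and *Arc* were 10.8-fold and 10.6-fold lower in the vMB, with log2 fold changes of -3.43 ± 0.21 and -3.40 ± 0.22 on the log2(value + 1) scale. For these genes the highest of the 8 vMB libraries stayed below the lowest of the 8 PFC libraries, at 90.5 against 421 for *Npas4* and 553 against 1574 for *Arc*. *Nr4a1* was 8.34-fold, *Fosb* 7.27-fold, *Egr1* 6.65-fold and *Junb* 5.54-fold lower in the vMB. Their 8 vMB and 8 PFC values did not overlap either. The share of all tested genes that separate in this way is not given here, so these ranges only describe the genes. The remaining genes differed less and overlapped. *Nr4a3* was 4.40-fold lower in the vMB (log2 fold change -2.14 ± 0.28), with the vMB library below the PFC library in 63 of 64 pairs. *Fos* was 2.16-fold lower (log2 fold change -1.11 ± 0.24, adjusted p = 4.29e-04 in limma) with 59 of 64 pairs, and *Dusp1* was 2.13-fold lower (log2 fold change -1.09 ± 0.21, adjusted p = 1.69e-04 in limma) with 57 of 64 pairs. *Fos*, the gene most often used to mark active cells, had a mean in the vMB of 44.6% of its PFC mean, whereas that of *Egr2* was 2.98%, both as normalized values. These differences went along with those of the cell types of the tissues, with all 7 markers of cortical projection neurons lower and all 6 markers of oligodendrocytes higher in the vMB (median log2 fold change 2.14). The part of the cell types in the differences was not tested.

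No immediate early gene was called between Mutant and WT mice. In the vMB 0 of the 10 genes were called by limma, against 3.25% of all tested genes, and in the PFC 0 of the 10, against 0.142% of all tested genes. At an unadjusted p under 0.05 the count was also 0 of 10 in each tissue, against 3101 genes in the vMB and 2532 in the PFC of the 14814 tested. A count of 0 in a list of 10 does not set these genes apart from the others. The exact permutation test of each gene in each tissue gave two-sided p-values between 0.0857 and 0.943 for the 20 pairs of gene and tissue, where the smallest p that 4 against 4 libraries allow is 0.0286. Adjusted over the 20 pairs none was under 0.932, where 1 pair alone could not have gone below 0.571 and 12 pairs at the smallest p would have been needed for 0.05. In none of the 20 pairs did the Mutant and WT values separate without overlap, which would have given the smallest exact p. The share of all tested genes that separate is not given here, so this count only describes the 20 pairs. The signs were mixed, with 6 genes higher and 4 lower in Mutant in the vMB and 4 higher and 6 lower in the PFC. The median log2 fold change of the 10 genes was 0.04 in the vMB and -0.02 in the PFC, next to -0.01 over all tested genes in each tissue.

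The comparison did not show that the genes were equal in both genotypes, because the intervals were wide. The smallest exact p was that of *Junb* in the vMB, where the means were 265 ± 43.3 in Mutant and 195 ± 47.4 in WT libraries (SD, n = 4 each; exact permutation p = 0.0857). Its log2 fold change was 0.46 ± 0.27 (SE), with a 95% interval from -0.11 to 1.03 (adjusted p = 0.363 in limma). The largest fitted difference in the vMB was that of *Egr2*, -0.57 ± 0.45 (95% interval -1.52 to 0.38), at the low values noted above. In the PFC the largest differences were those of *Fosb*, -0.43 ± 0.29 (95% interval -1.03 to 0.18), and *Nr4a3*, -0.42 ± 0.39 (95% interval -1.25 to 0.41), both lower in Mutant. For *Fosb* the PFC means were 241 ± 72.1 in Mutant and 321 ± 79.2 in WT libraries. The narrowest intervals were those of *Egr1*, from -0.53 to 0.29 in the vMB and from -0.65 to 0.18 in the PFC on the log2 scale. For *Nr4a1*, which had the smallest fitted differences in both tissues, -0.01 in each, the intervals still reached from -0.64 to 0.62 in each tissue.

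Averaged over both tissues, 0 of the 10 genes were called between Mutant and WT by limma, against 2.59% of all tested genes. At an unadjusted p under 0.05 the count was 0 of 10 genes, against 4081 of the 14814 tested genes. *Junb* had the smallest p, with a log2 fold change of 0.29 ± 0.19 (adjusted p = 0.344 in limma). The difference of the genotype effect between the tissues, the vMB change minus the PFC change, was called for 0 of the 10 genes, against 0% of all tested genes. It had an unadjusted p under 0.05 for 0 of 10 genes, against 864 of the 14814 tested genes. The largest such difference was that of *Nr4a3*, 0.69 ± 0.56 (95% interval -0.48 to 1.87). *Nr4a3* had a higher mean in Mutant in the vMB, at 109.7 ± 79.8 against 76.2 ± 23.5 in WT, and a lower one in the PFC, at 324 ± 93.1 in Mutant against 427 ± 101 in WT. The vMB difference of *Nr4a3* rested on Mutant library 1, without which its log2 fold change was -0.16.

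**Figure D2:**
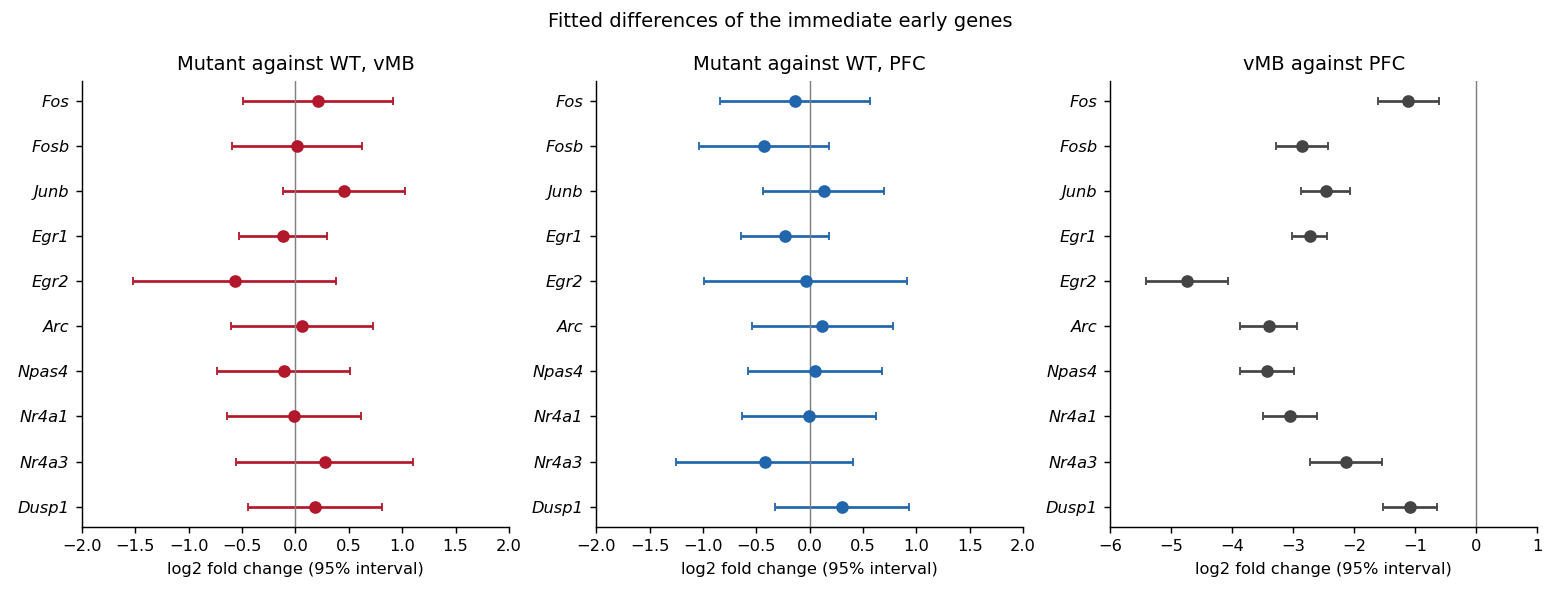
Log2 fold changes of the 10 genes with 95% intervals from limma, for Mutant against WT in the vMB and the PFC, and for vMB against PFC. All 20 genotype intervals contain 0. The tissue intervals of the 9 genes other than *Egr2* lie below it, from *Dusp1* at -1.09 to *Npas4* at -3.43. *Egr2*, which is low in the vMB, is drawn at -4.74 with its interval, which is not used as a test.

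Within the groups, the 10 genes were high or low together from library to library. To describe this, the mean of its group was subtracted from each log2 value, and Pearson's r was computed for the 45 pairs of genes. In the vMB all 45 pairs had a positive r, from 0.19 to 0.98 with a median of 0.72 (n = 8 libraries). In the PFC all 45 pairs were positive too, from 0.40 to 0.98 with a median of 0.83 (n = 8 libraries). Over all pairs of tested genes 49.96% were positive in the vMB and 50.2% in the PFC, with a median r of 0.00 in both. Spearman's rho was positive for the 45 pairs in each tissue, with medians of 0.69 in the vMB and 0.79 in the PFC. The points of a pair share their library, its depth and its dissection, and the r are given as a description. The deepest library, vMB Mutant 3, and the shallowest, PFC Mutant 1, were both among the lowest of their tissue in these genes. The part of the depth in the pattern was not tested. With the trend of each library with transcript length removed, the median r was 0.72 in the vMB and 0.83 in the PFC.

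Some pairs were tighter than others. In the vMB the closest pair apart from *Egr2* was *Fos* with *Egr1* (r = 0.97, rho = 0.90), and with the 2 libraries farthest from the median left out it had an r of 0.94. *Egr2* with *Npas4* had an r of 0.98 in the vMB, where *Egr2* stood for a few reads. Without *Egr2* the 36 remaining pairs had a median r of 0.73 in the vMB and 0.81 in the PFC. In the PFC the closest pair was *Fos* with *Dusp1* (r = 0.98, rho = 0.98), with 0.96 after the same step. *Fosb* with *Nr4a3* reached 0.97 and *Junb* with *Dusp1* 0.97. The loosest pair in the vMB was *Nr4a3* with *Dusp1* (r = 0.19), and in the PFC it was *Egr1* with *Npas4* (r = 0.40), whose r was -0.06 without the 2 farthest libraries. With these 2 libraries left out, 45 of 45 pairs stayed positive in the vMB and 44 of 45 in the PFC. The most separate gene differed between the tissues, *Nr4a3* in the vMB (r = 0.55 with the mean of the other 9 genes) and *Npas4* in the PFC (r = 0.63). *Junb* followed the other 9 genes most closely in both tissues, with an r of 0.95 in the vMB and 0.98 in the PFC. Leaving out each library in turn kept all 45 pairs positive in the PFC, with medians between 0.80 and 0.90. In the vMB the medians stayed between 0.68 and 0.79, and 43 of 45 pairs were positive without Mutant library 3, with a lowest r of -0.26, whereas all 45 were without any other library.

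**Figure D3:**
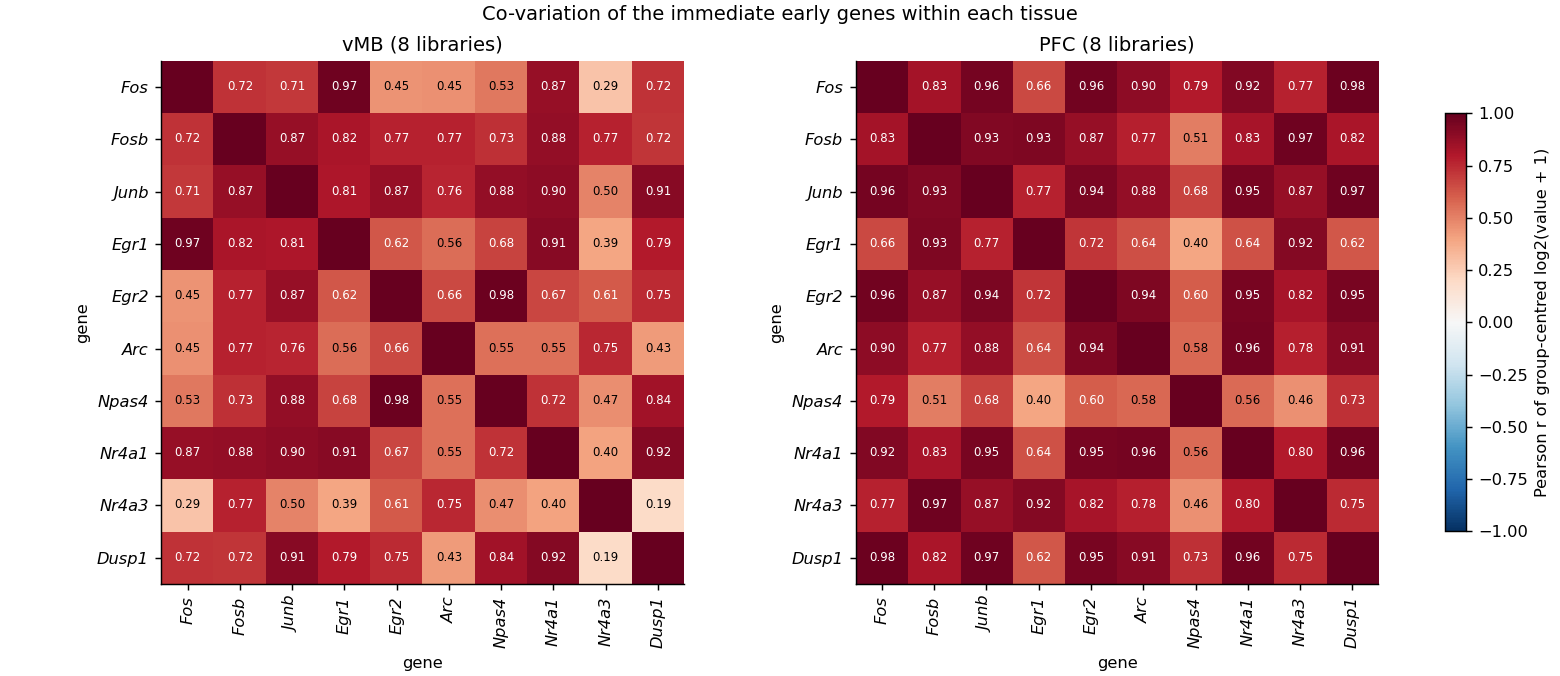
Pearson's r of group-centered log2(value + 1) for every pair of the 10 genes, over the 8 libraries of the vMB and the 8 libraries of the PFC, on a color scale from -1 to 1. All pairs are positive, from 0.19 to 0.98 in the vMB and from 0.40 to 0.98 in the PFC.

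Low and high libraries were found in both genotypes. For each library the deviations of the 10 genes from the mean of the tissue were averaged on the log2 scale. In the PFC the lowest library was WT 1, with a mean deviation of -0.87, which is 0.549 of the tissue level, and 7 of the 10 genes had their lowest PFC value in it. Its deviations ran from -1.48 for *Egr2* to -0.10 for *Egr1*, and all 10 genes were among their lowest 2 PFC values there. The next was PFC Mutant 1 at -0.54, where the remaining 3 genes, *Fosb*, *Egr1* and *Nr4a3*, had their lowest value. The highest PFC libraries were WT 4 at 0.47, WT 3 at 0.45 and Mutant 3 at 0.43, and the other 3 libraries lay between -0.03 and 0.08. Each genotype of the PFC thus held both low and high libraries.

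In the vMB the range was narrower. The lowest libraries were WT 1 at -0.48, in which 6 of the 10 genes had their lowest vMB value, and Mutant 3 at -0.46, in which the other 4 had theirs. The highest was Mutant 1 at 0.43, where all 10 genes lay above the tissue mean and *Nr4a3* stood 1.44 above it. WT 3 followed at 0.32, Mutant 4 at 0.21 and WT 4 at 0.19, and Mutant 2 and WT 2 each lay at -0.10. Markers of cell types differed between the libraries of a tissue as well. In the vMB the markers of cortical projection neurons moved in part with the immediate early genes, with a median r of 0.52 over the 8 vMB libraries. Their mean deviation was 1.24 in vMB Mutant 1 and 0.93 in vMB WT 3, both high in immediate early genes, and -0.77 in vMB Mutant 3, which was low. It was -0.80 in vMB WT 4, however, where the immediate early genes lay above the mean, and -0.14 in vMB WT 1, where they were lowest. The markers of dopamine neurons went the other way in the vMB. All 5 tested markers had a negative r with the mean of the 10 genes over the 8 vMB libraries, with a median of -0.56, and *Slc6a3* (-0.90) and *Th* (-0.80), the dopamine transporter and the enzyme that starts dopamine synthesis, were named after their values were seen. Their mean deviation ran from -0.36 in vMB Mutant 1 to 0.46 in vMB WT 2, and their summed level from 1586 to 2151 in vMB Mutant and from 1838 to 2663 in vMB WT libraries. Of the 6 markers of inhibitory neurons 2 had a negative r in the vMB, and of these *Pvalb*, named after its values were seen, had -0.84. The summed level of the 7 markers of cortical projection neurons ranged from 1411 to 4281 in vMB Mutant and from 1457 to 3255 in vMB WT libraries, against 17860.3 to 23786 in PFC Mutant and 19692 to 21654 in PFC WT libraries. In the PFC, where the markers of projection neurons deviated by -0.20 to 0.18, the lowest library in immediate early genes, WT 1, had a marker deviation of 0.12. The markers of oligodendrocytes varied widely in the PFC, from -0.69 in WT 4 to 1.17 in Mutant 2, and their summed level ranged from 26179 to 87134 in PFC Mutant and from 22685 to 66254 in PFC WT libraries. Of the libraries high in immediate early genes, WT 4 was low in these markers and WT 3 high (0.85). The part of the dissection in the pattern was not tested.

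**Figure D4:**
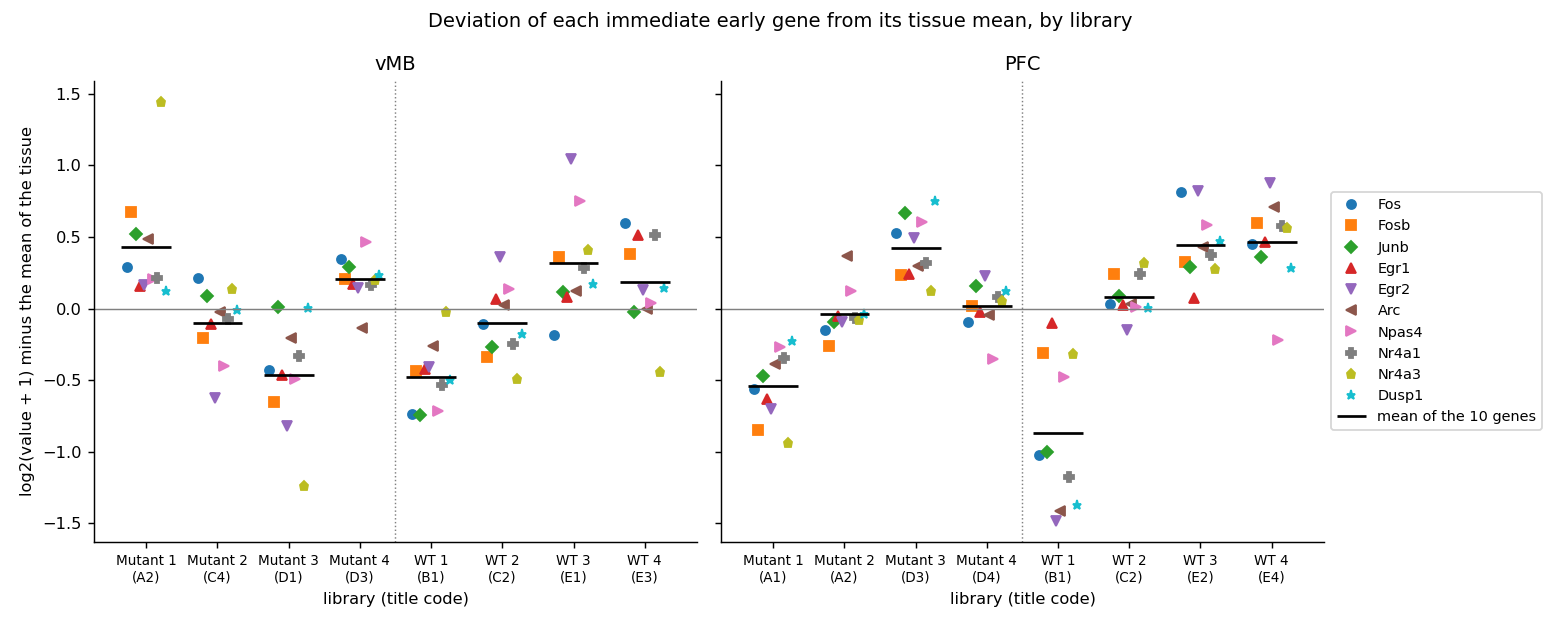
Deviation of each gene from the mean of its tissue, on the log2 scale, in each library, with the mean of the 10 genes as a black line and the code from the title of the sample in parentheses. The 10 genes deviate as a block in WT 1 of both tissues (-0.48 in the vMB and -0.87 in the PFC), and in the PFC also in Mutant 1 (-0.54), while Mutant 3, WT 3 and WT 4 of the PFC lie high.

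The sample titles carry a code of a letter and a number, which the labels do not explain, and 4 codes occur in both tissues. The values of these libraries are given side by side. The 2 libraries with code B1, both WT 1, were the lowest of their tissue, at -0.48 in the vMB and -0.87 in the PFC, and all 10 genes lay below the mean in both. The libraries with code D3 were both above the mean, at 0.21 in the vMB (Mutant 4) and 0.43 in the PFC (Mutant 3), and 9 of the 10 genes had the same sign in both, with *Arc* as the exception. Code A2 gave 0.43 in the vMB (Mutant 1) and -0.03 in the PFC (Mutant 2), with the same sign for 2 genes. Code C2 gave -0.10 in the vMB and 0.08 in the PFC (both WT 2), with the same sign for 3 genes. Over all 14814 tested genes the group-centered deviations of libraries with the same code were not related, with an r between -0.03 and 0.01 for the 4 codes.

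**Figure D5:**
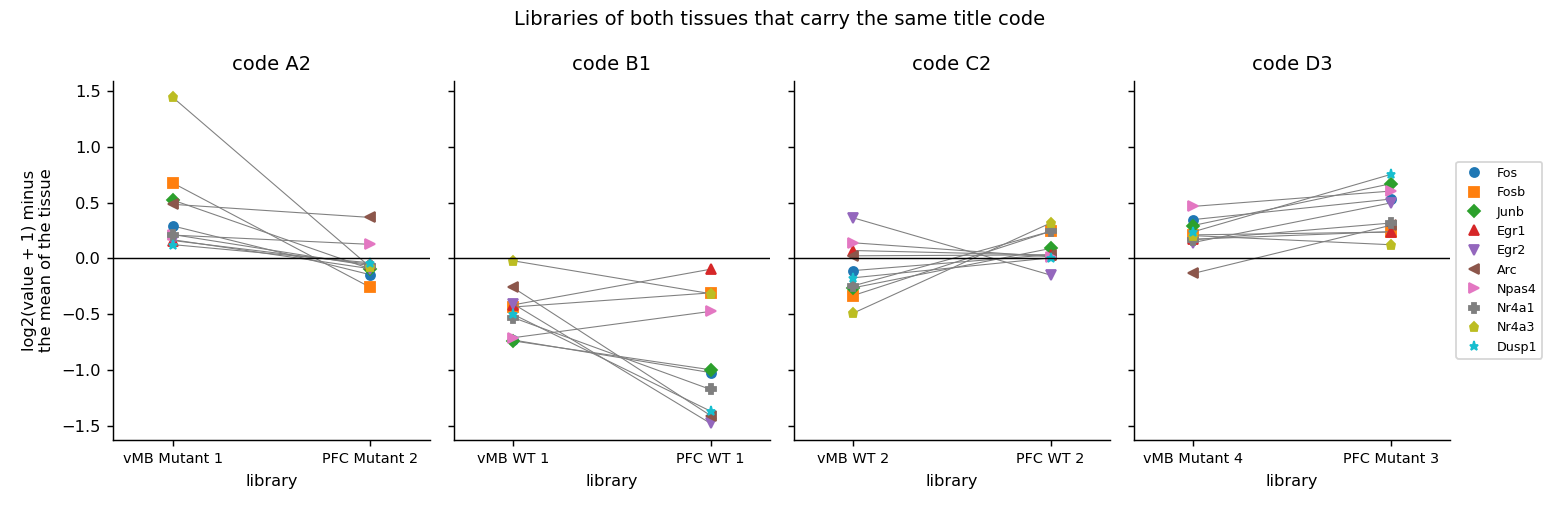
Deviation of the 10 genes from the mean of the tissue, on the log2 scale, in the libraries of the vMB (left) and PFC (right) that carry the same code, with a line for each gene. Code B1 lies below 0 in both tissues for 10 of 10 genes and code D3 above 0 for 9 of 10, whereas codes A2 and C2 share the sign for 2 and 3 genes.

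Genes outside the 10 that followed the same pattern were looked for over all 16 libraries. Each of the 11727 other genes with a mean of at least 50 was compared with the mean of the standardized group-centered values of the 10 genes. The median r was 0.02, 4.08% of the genes reached 0.5 and 17 genes reached 0.8. The closest was *Sik1*, a kinase gene that CREB induces and whose product restrains the coactivators of CREB, with an r of 0.92 over 16 libraries, 0.89 in the vMB and 0.95 in the PFC. Next came *Per1* (r = 0.87), a clock gene that light and activity also induce, *Mcl1* (r = 0.87), a survival factor of the BCL2 family, and *Vps37b* (r = 0.87), a subunit of the ESCRT-I complex. They were followed by *Kdm6b* (r = 0.86), a histone H3 demethylase, *Dusp5* (r = 0.85), a phosphatase that acts on ERK, *Ier2* (r = 0.84), an immediate early gene, *Tob2* (r = 0.83), an antiproliferative factor, and *Nab2* (r = 0.82), a corepressor that binds EGR proteins. None of these 9 genes was called between Mutant and WT in either tissue, against 3.25% of all tested genes in the vMB and 0.142% in the PFC. Between the tissues *Sik1*, *Per1*, *Vps37b*, *Dusp5*, *Ier2* and *Nab2* were called lower in the vMB, from -0.55 for *Sik1* to -1.81 for *Nab2* on the log2 scale. *Mcl1* (-0.05), *Kdm6b* (-0.35) and *Tob2* (0.07) were not called.

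Wider lists of the pathway were read in the same way. Of 24 other immediate early transcription factors and RNA-binding factors, 23 were tested and 0 were called between Mutant and WT in either tissue. Of all tested genes 3.25% were called in the vMB and 0.142% in the PFC, so 0 calls in a list of this length is close to the background. The 3 with the highest mean, *Jund*, *Bhlhe40* and *Per1*, had log2 fold changes of 0.03, -0.14 and -0.14 in the vMB and 0.17, 0.08 and 0.04 in the PFC. Between the tissues 14 of the 23 were called lower and 1 higher in the vMB, against 24.2% and 24.3% of all tested genes, with a median log2 fold change of -0.72. Of 30 other activity-regulated effectors, all were tested and 0 were called between genotypes, against the same 3.25% and 0.142% of all tested genes. Between the tissues 18 were called lower and 2 higher in the vMB, against 24.2% and 24.3% of all tested genes. The neuropeptide precursors *Vgf* and *Scg2*, among the 3 highest, went in opposite directions, with log2 fold changes of -0.62 and 1.48 for vMB against PFC, and *Nrn1*, a secreted neurite growth factor, had -0.67. Over the 16 libraries the median r with the 10 genes was 0.51 for the transcription factors and 0.48 for the effectors. Not all followed: *Ier3* had an r of -0.60 and *Crem*, which encodes a repressor and activator of CREB targets, one of -0.46, both named after their values were seen.

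The proteins that switch these genes on are encoded by genes of which 28 were tested, all of the list. In the vMB 3 of the 28 were called lower in Mutant and 0 higher, against 2.02% and 1.23% of all tested genes, and in the PFC 0 were called, against 0.142%. *Crebbp* and *Ep300* encode the histone acetyltransferases CBP and p300, coactivators of CREB, and *Mef2d* a transcription factor of activity-dependent genes. *Crebbp* averaged 198 ± 10.03 in vMB Mutant and 270.5 ± 18.03 in vMB WT libraries (SD, n = 4 each), a log2 fold change of -0.45 ± 0.08 (adjusted p = 0.00595 in limma). *Ep300* averaged 438 ± 52.6 in vMB Mutant and 587 ± 49.7 in vMB WT libraries, a log2 fold change of -0.42 ± 0.10 (adjusted p = 0.0150 in limma). *Mef2d* averaged 917 ± 71.6 in vMB Mutant and 1197 ± 50.8 in vMB WT libraries, a log2 fold change of -0.39 ± 0.10 (adjusted p = 0.0256 in limma). The slope of the log2 values on log2 transcript length, relative to the mean of the tissue, was between -0.0797 and -0.0136 in the 8 Mutant libraries and between 0.0114 and 0.0778 in the 8 WT libraries. The 3 calls were lost when the trend of each library with transcript length was removed. Since the slopes separate the genotypes without overlap, this step can also remove part of a genotype difference, and the 2 cannot be told apart here. The log2 fold change was then -0.26 for *Crebbp* (adjusted p = 0.0697), -0.23 for *Ep300* (0.136) and -0.31 for *Mef2d* (0.0975), all in limma. *Ep300* was also not called without vMB WT library 4 (0.0675) or vMB Mutant library 4 (0.0700), nor was *Mef2d* without vMB WT library 4 (0.0930) or vMB Mutant library 2, 3 or 4 (0.0618 to 0.0793). The call of *Mef2d* was also lost without the mean-variance trend (0.0534) and with upper quartile rescaling, where its log2 fold change of -0.3778 was under the fold minimum. The median log2 fold change of the 28 genes was -0.08 in the vMB and -0.13 in the PFC, next to -0.01 over all tested genes. Their median r with the 10 immediate early genes was 0.20 over the 16 libraries, 0.43 in the vMB and -0.07 in the PFC.

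Other genes respond to handling, anesthesia or heat, and 19 genes of the heat shock and glucocorticoid response were set beside the immediate early genes. In this list 0 genes were called between genotypes in either tissue, against 3.25% of all tested genes in the vMB and 0.142% in the PFC. The most abundant, *Hspa8*, *Hsp90aa1* and *Hsph1*, had an r with the 10 genes of 0.04, -0.07 and 0.04 over the 16 libraries. The median r of the list was 0.11. *Sgk1*, a glucocorticoid-induced kinase gene, had 0.66 and was named after its values were seen. Of the 6 markers of endothelium, 4 were called lower in vMB Mutant (*Pecam1*, *Cdh5*, *Flt1* and *Tek*), against 2.02% of all tested genes, while *Cldn5* (-0.15) and *Slco1a4* (0.18) were not called, and the median log2 fold change of the list was -0.61. Their summed level ranged from 1244 to 1371 in vMB Mutant and from 1399 to 1783 in vMB WT libraries. Of the 6 markers of microglia, 1 was called higher in vMB Mutant, *P2ry12*, with a log2 fold change of 0.38, against 1.23% of all tested genes. Of the 6, 3 had a negative value, and the median was -0.02. The endothelial and microglial calls are given with the main settings only. With the trend with transcript length removed, 133 of all genes were called in the vMB, against 481 with the main settings. The median r of the endothelial markers with the 10 genes was -0.02, that of the oligodendrocyte markers 0.10 and that of the microglial markers 0.31, over the 16 libraries. Within the vMB all 6 oligodendrocyte markers had a negative r, with a median of -0.43, and within the PFC all 6 had a positive one, with a median of 0.17. The part of these cells in the levels of the immediate early genes was not tested.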

How the data were processed

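Poly-A RNA libraries of 16 samples were sequenced by the authors as single-end reads, which they trimmed with Cutadapt 1.8.3, mapped with TopHat 2.0.10 and counted over genes using HTSeq-count 0.6.1p1. Deposited as signal values were these counts after normalization by the authors with DESeq2, whose version is not stated. The methods name the human genome for mapping although the identifiers are of mouse genes, so the mouse build is not known. Between 66.3% and 70.1% of a library's low values lay within 0.05 of a whole step (the most frequent low value), so whole reads were not recovered and no count test was used. The approximate depth is the summed values divided by that step. The p-value columns and the signed fold changes in the score columns, deposited by the authors, were not used, nor were their marks of genes past the thresholds.

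Values were taken as log2(value + 1) and tested in 1 model of the 4 groups (limma 3.58.1, R 4.3.3, 16 libraries) with a mean-variance trend and Benjamini-Hochberg adjustment over the 14814 genes with a mean of at least 10. Fold changes are on this scale, which understates those of low genes. Each gene was also tested within a tissue by an exact two-sided permutation test over all 70 splits, with the p-values adjusted over 20 pairs of gene and tissue. Exon lengths came from GENCODE vM21 (GRCm38) and were available for 99.0% of the tested genes. The code in the titles is not explained in the sources used here. A symbol on several rows was read from the row with the highest mean. Replicate numbers were not used to pair the samples in the main model, and whether they mark the same animal is not known. The members and the gene lists were chosen with earlier results of these data known. Named genes are the 10 members, the genes of a list that were called between genotypes in a tissue (otherwise the 3 with the highest mean), and the 10 genes most like the members over 16 libraries, of which 1 is not reported here. The pipeline was tested on simulated data.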

Additional observations from a re-analysis of the deposited data

How the results depend on the processing

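The counts of called immediate early genes were the same under every alternative run. They were 0 of 10 in each genotype comparison and, without *Egr2*, whose tissue difference was not tested, 9 of 9 between the tissues. In either direction 7190 of the 14814 tested genes were called between the tissues with the main settings, and from 4900 to 10062 over the alternatives. Alternatives of scale were a pseudocount of 0.5 or 5, quantile normalization, and upper quartile or median ratio rescaling. Those of the filter were no filter or a higher one (a mean of 50). Others were the 8 libraries of a tissue alone (run for the genotype comparisons within a tissue), no mean-variance trend and removal of the length trend. The rest were no fold minimum or one of 1.5, and each library left out. Same-numbered libraries of different groups had a median r of 0.00, against -0.001 for other numbers. This cannot show whether the numbers pair animals, since many same-numbered pairs join Mutant with WT libraries. How alike the tissues of an animal would be is not known either. With a replicate block 0 of 10 genes were called in each genotype comparison and, without *Egr2*, 9 of 9 between the tissues. The title code as a correlated block also gave these counts. The background did depend on the settings. Without the length trend, 133 genes were called in the vMB, 114 over both tissues and 0 in the PFC, against 481, 383 and 21, and with the replicate block added 113, 116 and 0. The PFC count was 3 with no filter, 57 at a mean of at least 50, 3 with the replicate block, 6 at a fold of 1.5, and 0 without the mean-variance trend or with the PFC libraries alone. At a fold of 1.5 the counts were 99 in the vMB and 83 over both tissues, and with no fold minimum 956 and 1923. With a library left out they ran from 0 to 253 in the PFC, 163 to 573 in the vMB and 247 to 543 over both tissues.

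The sign of small genotype differences rested on single libraries. In the PFC the log2 fold change with a library left out ran from -0.50 to 0.11 for *Fos*, -0.18 to 0.31 for *Junb*, -0.54 to 0.25 for *Egr2*, -0.33 to 0.38 for *Arc*, -0.14 to 0.25 for *Npas4*, -0.40 to 0.18 for *Nr4a1* and -0.10 to 0.51 for *Dusp1*. In the vMB it ran from -0.21 to 0.23 for *Fosb*, -0.28 to 0.030 for *Egr1*, -0.089 to 0.14 for *Arc*, -0.37 to 0.12 for *Npas4*, -0.19 to 0.16 for *Nr4a1* and -0.16 to 0.73 for *Nr4a3*. Quantile normalization gave 0.011 for *Nr4a1* in the PFC. No other alternative changed a sign of a gene within a tissue, and all tissue differences kept theirs. For the values named beyond these, added after seeing the data, the log2 fold change ran over the alternatives from 0.14 to 0.38 for *Junb* over both tissues and from 0.26 to 1.15 for *Nr4a3* as the vMB change minus the PFC change. The alternatives for *Crebbp*, *Ep300* and *Mef2d* were added after seeing the data. With 4 libraries a group, genotype differences of the immediate early genes that lie within the intervals given were not excluded. The time since the last stimulus, the founder line and the animal behind each library were not tested.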
